A study of Mus musculus with 12 samples.

Results

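Acyl-CoA synthetases join a fatty acid or acetate to coenzyme A. The 10 genes of the family described here, Acsl1, Acsl3, Acsl4, Acsl5, Acsl6, Acss1, Acss2, Acss3, Acsf2 and Acsm5, were taken by gene symbol from the 55573 genes of the count table. Of these 10 genes, 9 were among the 15117 genes with enough counts to be tested, and Acsl6 was not. RNA was sequenced from mouse adipocytes of 3 genotypes, with 4 libraries per genotype. All were C57BL/6, and the mutants were homozygous for a knock-in allele of the nuclear receptor PPARγ made with CRISPR-Cas9 and present in every cell of the animal. In TA, threonine T166 was replaced by alanine, which cannot be phosphorylated. In TD it was replaced by aspartate, which mimics a phosphorylated residue, and WT carried the unchanged allele. Stromal vascular cells of subcutaneous fat were differentiated in culture with insulin, T3, IBMX, indomethacin and dexamethasone, then kept in insulin and T3, and all 3 genotypes were collected on day 8 without further treatment. The labels do not say whether the 4 libraries of a genotype came from separate animals or cultures, so p-values measure the spread between these libraries, which may be technical.

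Fatty acids are inert until activated. The thioester formed with coenzyme A, at the cost of ATP, is the form that enters triglyceride synthesis, phospholipid remodelling or oxidation in mitochondria. The ACSL enzymes act on long chains, the ACSS enzymes on acetate and propionate, and Acsf2 and Acsm5 on medium chains. In fat cells ACSL1 is the main long-chain enzyme and is a known PPARγ target, and ACSS2 supplies acetyl-CoA from acetate in the cytosol.

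Libraries held 16553324 to 20324286 counts, with the WT libraries the deepest. The 7 adipocyte markers (Adipoq, Fabp4, Plin1, Lipe, Cfd, Cidec and Lep) were detected in all libraries. Their summed level was 11700.1 to 13979 CPM (counts scaled to a common normalized library size) in WT, 12141 to 15826 CPM in TA and 7771 to 9452 CPM in TD. Fabp4 made up most of this sum, with medians of 7790 CPM in WT, 8740 CPM in TA and 5200 CPM in TD. Of the 7, 6 fell in TD against WT, where 14.2% of all tested genes fell. In TA against WT 1 rose, Cidec, and 1 fell, Lep, where 6.72% of all tested genes rose and 4.41% fell. Summed levels of 7 skeletal muscle markers were 5.31 to 11.9 CPM in WT, 16.9 to 66.3 CPM in TA and 17.9 to 249 CPM in TD, with Myog at 0 counts in every WT library. The 6 fibroblast and preadipocyte markers summed to 3205 to 3898 CPM in WT, 2906 to 5104 CPM in TA and 4629.9 to 6968 CPM in TD, and 5 endothelial markers to 23.3 to 48.9, 42.3 to 73.4 and 86.3 to 108 CPM. Macrophage markers (6 genes) spread widely within WT, from 249 to 702 CPM, and lay at 120.1 to 510.3 CPM in TA and 519 to 712 CPM in TD. Col1a1 made up most of the fibroblast and preadipocyte sum, and Lyz2 most of the macrophage sum. The 5 brown and beige markers, with Ucp1 at 0 to 5 counts per library, summed to 24.5 to 33.0 CPM in WT, 26.9 to 32.4 CPM in TA and 20.2 to 23.4 CPM in TD. Within this sum, markers moved in opposite directions in TA against WT. Ppargc1a rose by 0.52 on the log2 scale and Dio2 fell by 1.49, both called, and Prdm16 was not called. The part of these cell types in the results that follow was not tested, and in bulk RNA fewer cells of a type and less RNA per cell cannot be told apart.

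In TA against WT, Acsl1 and Acsf2 rose. Acss1 and Acss3 fell in TD against WT. Between the mutants, Acsl1, Acss2, Acss3 and Acsf2 were lower in TD. In edgeR's quasi-likelihood test with Benjamini-Hochberg adjustment, 2 of the 9 tested members passed an adjusted p of 0.05 in TA against WT, both higher, where 11.1% of all tested genes passed, 6.72% higher and 4.41% lower. For TD against WT 2 of 9 passed, both lower, where 29.2% of tested genes passed, 15.1% higher and 14.2% lower. For TD against TA 4 of 9 passed, all lower in TD, where 16.7% of tested genes passed, 7.33% higher and 9.37% lower. When a log2 change of more than 1 in size was also required, 0 of the 9 passed in any comparison, where 2.8%, 5.26% and 2.39% of tested genes did in TA against WT, TD against WT and TD against TA. The TA and TD comparisons with WT share the WT libraries. The median log2 fold change of the 9 was 0.15 in TA against WT, -0.12 in TD against WT and -0.31 in TD against TA, beside -0.0055, 0.011 and 0.023 for all tested genes. The 4 libraries of one genotype lay entirely apart from those of the other for 3 members in TA against WT (Acsl1, Acsl4 and Acsf2), where 13.6% of tested genes did so. The same held for Acss1, Acss2 and Acss3 in TD against WT, where 32.2% of tested genes did so, and for Acsl1, Acss3 and Acsf2 in TD against TA, where 19.9% did.

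**Figure D1:**
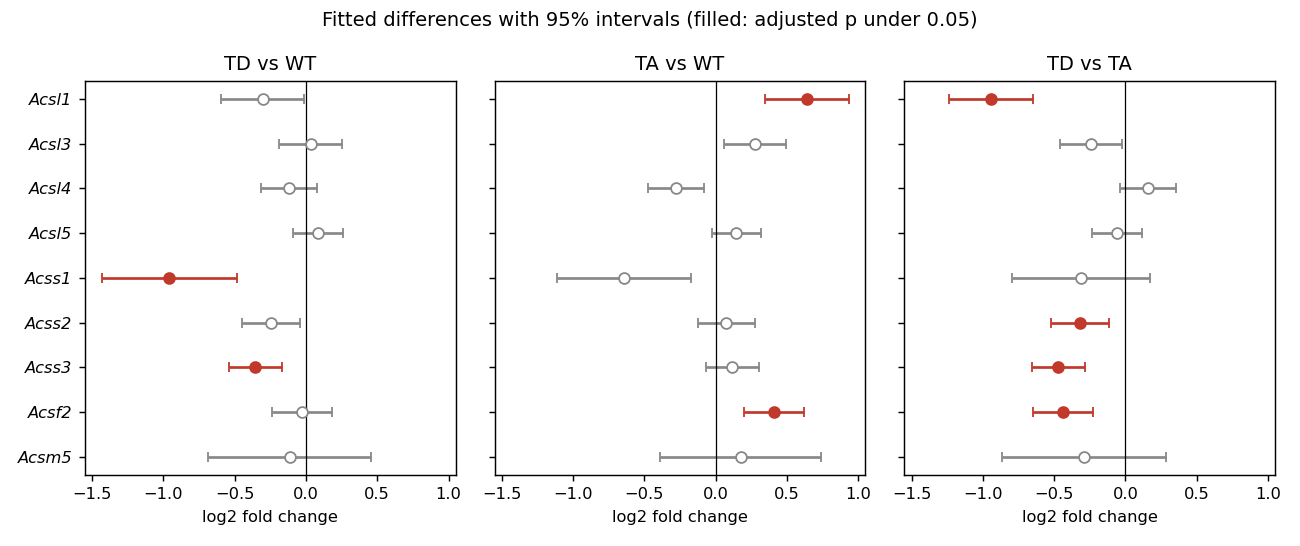
Log2 fold change of the 9 tested members in 3 comparisons, with 95% intervals; filled points have an adjusted p under 0.05. Acsl1 has the largest TA against WT rise, 0.64, and Acss1 the largest TD against WT fall, -0.96.

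Acsl1 (ENSMUSG00000018796, chr8:46471037-46536051, plus strand of GRCm38) codes for the long-chain synthetase of fat, liver and heart. In WT it stood at 1586, 1119.9, 1399 and 1985 CPM, in TA at 2564, 2397, 2414 and 2110.0 CPM, and in TD at 1122, 1197, 1176.5 and 1443 CPM. Each TA library was above each WT and each TD library, while WT and TD overlapped. Acsl1 was higher in TA than in WT by 0.64 on the log2 scale (SE 0.138, adjusted p = 0.00649), which is 1.56-fold with a 95% interval of 1.27 to 1.91. Against TA, TD fell by 0.94 (SE 0.139, adjusted p = 0.000313), to 0.521 times the TA level (0.425 to 0.638). The TD to WT difference did not pass the test, at -0.30 with an interval of -0.59 to -0.01 (adjusted p = 0.112). Without WT replicate 2, the lowest WT library, that difference was -0.43 with an adjusted p of 0.0168, and with no filter on low counts the adjusted p was 0.0208. The WT libraries varied most, with a coefficient of variation of 23.8%, against 8.0% in TA and 11.5% in TD. The study followed Acsl1 up by name from these same libraries, so its change here is not independent evidence. Separately, the paper measured PPARγ binding by ChIP-qPCR in cultured adipocytes, at lipid catabolism genes picked from these libraries. It states that TA preferred binding there and that TD inhibited it.

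Acsl1 has 2 annotated start sites, each with a promoter window in the RefSeq table (GRCm38.p6). The first, at the 5′ end of the gene, is chr8:46470787-46471036 on the plus strand, with 72.0% GC against a median of 52.4% over all windows. The second, inside the gene, is chr8:46490716-46490965 on the plus strand, with 48.4% GC. Both are shown because Acsl1 is the member with the largest rise in TA against WT and the largest difference between the mutants, and Acsf2, the other member that rose in TA, is shown for comparison, from chr11:94601787-94602036 on the minus strand with 70.0% GC. Each window holds the 250 bases before the start site, 5′ to 3′. Capitals mark GC boxes (GGGCGG on either strand) in the first Acsl1 window and in Acsf2, and a match to the sterol regulatory element TCACNCCAC, read on the opposite strand, in the second Acsl1 window.
Acsl1 first start: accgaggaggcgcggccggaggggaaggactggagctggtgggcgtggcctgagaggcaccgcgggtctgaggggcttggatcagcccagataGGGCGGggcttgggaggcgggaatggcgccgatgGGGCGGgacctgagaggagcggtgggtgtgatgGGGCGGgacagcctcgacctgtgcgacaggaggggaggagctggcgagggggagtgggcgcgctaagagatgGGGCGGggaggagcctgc
Acsl1 second start: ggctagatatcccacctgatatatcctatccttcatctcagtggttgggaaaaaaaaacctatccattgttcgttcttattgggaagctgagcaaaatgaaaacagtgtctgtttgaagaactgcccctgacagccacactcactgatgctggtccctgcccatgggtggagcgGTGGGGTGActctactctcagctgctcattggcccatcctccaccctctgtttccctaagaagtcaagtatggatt
Acsf2 start: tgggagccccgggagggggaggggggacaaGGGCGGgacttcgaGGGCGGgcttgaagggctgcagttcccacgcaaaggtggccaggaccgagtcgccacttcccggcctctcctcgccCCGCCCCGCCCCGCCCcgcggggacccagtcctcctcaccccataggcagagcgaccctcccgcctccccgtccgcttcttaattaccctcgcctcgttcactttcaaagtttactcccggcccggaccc
The first Acsl1 window holds 4 GC boxes and the Acsf2 window 5, of which 3 lie in a row and overlap by 1 base each. GC boxes occurred in 32.7% of all 32851 windows and in 9 of the 12 member windows, so they were not particular to the genes that rose in TA. The window of Acsl3, which was not called in any comparison, holds 5, and that of Acss2 holds 4. The TCACNCCAC match lay 76 bases before the second Acsl1 start, and 1.05% of all windows hold one. The direct repeat bound by PPARγ with its partner RXR, searched on both strands as 2 copies of AGGTCA set 1 base apart, was in none of the 12 windows of the 9 members in the table and in 0.0335% of all windows. With any base at position 4 of each copy, AGGNCA, it was again in none of the 12 and in 0.338% of all windows. The absence of these letters from these windows says nothing about where the receptor binds.

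The other long-chain members were lower in level and differed less between genotypes. Acsl3 (ENSMUSG00000032883, chr1:78657825-78707743, plus strand), an enzyme of the endoplasmic reticulum and lipid droplet surface, stood at 33.6, 31.3, 35.4 and 32.9 CPM in WT, 48.8, 38.3, 35.4 and 38.6 CPM in TA, and 36.6, 32.6, 37.7 and 29.3 CPM in TD. Its values overlapped in every comparison, and the TA to WT difference was 0.27 with a 95% interval of 0.06 to 0.49 (adjusted p = 0.0991). The TD to TA difference of -0.24 had an adjusted p of 0.117, and of 0.0488 at -0.30 without TA replicate 3. Acsl3 shares 244 exonic bases with Utp14b on the same strand, which had 73 to 116 counts per library. Acsl4 (ENSMUSG00000031278, chrX:142317993-142390535, minus strand) prefers arachidonic acid. It stood at 56.9, 48.4, 55.6 and 55.8 CPM in WT, 48.1, 46.5, 48.0 and 36.2 CPM in TA, and 55.3, 47.1, 48.4 and 48.7 CPM in TD. Every TA library was below every WT library, narrowly, yet the difference of -0.28 (SE 0.0934) missed the threshold with an adjusted p of 0.0676. Without WT replicate 2 it was -0.33 with an adjusted p of 0.0431, and DESeq2 gave an adjusted p of 0.0458. Between TD and WT it differed by -0.12, with an interval of -0.32 to 0.08.

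Acsl5 (ENSMUSG00000024981, chr19:55251938-55297720, plus strand) codes for a synthetase of mitochondria and endoplasmic reticulum. Its level was 58.5 to 72.2 CPM in WT, 66.3 to 78.1 CPM in TA and 63.9 to 72.7 CPM in TD, with all genotypes overlapping. The TA to WT difference was 0.15 (-0.03 to 0.32) and the TD to WT difference 0.09 (-0.09 to 0.26). Acsl5 shares 404 exonic bases with Zdhhc6 on the opposite strand, which had 932 to 1212 counts per library, and without the strand setting of the counting its share of these reads is uncertain. Acsl6 (ENSMUSG00000020333, chr11:54303798-54364756, plus strand), the synthetase of brain and testis, had 7, 5, 4 and 1 counts in WT, 3, 2, 11 and 2 in TA and 2, 6, 8 and 9 in TD. These counts are too few to compare genotypes.

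The short-chain members fell in TD or were lower there than in TA. Acss1 (ENSMUSG00000027452, chr2:150618105-150668500, minus strand), the mitochondrial enzyme that makes acetyl-CoA from acetate, stood at 22.6, 17.8, 15.4 and 17.0 CPM in WT, 9.76, 16.3, 6.17 and 14.4 CPM in TA, and 10.5, 10.6, 7.60 and 8.84 CPM in TD. All TD libraries were below all WT libraries, and TA overlapped both. TD fell by 0.96 against WT (SE 0.225, adjusted p = 0.00471), to 0.515 times the WT level. In TA against WT the difference was -0.64 (SE 0.222) with an interval of -1.11 to -0.17, and its adjusted p of 0.0739 missed the threshold. It passed without TA replicate 2, at -0.85 with an adjusted p of 0.0175, and with DESeq2, with an adjusted p of 0.0394. The TD to TA difference of -0.31 (-0.80 to 0.17) did not pass, and passed without TA replicate 3, at -0.53 with an adjusted p of 0.0441.

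Acss2 (ENSMUSG00000027605, chr2:155517948-155585724, plus strand) codes for the cytosolic and nuclear acetyl-CoA synthetase. It stood at 743, 643, 650.5 and 804 CPM in WT, 783, 791, 642 and 776 CPM in TA, and 642, 540.0, 634 and 579 CPM in TD. Every TD library was below every WT library, narrowly, and the difference of -0.25 (SE 0.0955) had an adjusted p of 0.0637, which missed the threshold. Against TA, TD fell by 0.32 (SE 0.0955, adjusted p = 0.0305), with TA replicate 3 inside the TD range. That call was lost without any one of TA replicates 1, 2 and 4 and TD replicates 2, 3 and 4, with adjusted p-values of 0.0814, 0.0880, 0.0710, 0.0958, 0.0510 and 0.0859. The TD to WT difference passed without WT replicate 2, at -0.29 with an adjusted p of 0.0420, without TA replicate 3, at -0.25 with 0.0372, and with DESeq2, with 0.0317. Acss2 shares 395 exonic bases with Gss and 197 with Ggt7 on the opposite strand, which had 635 to 1004 and 61 to 152 counts per library.

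Acss3 (ENSMUSG00000035948, chr10:106933517-107123668, minus strand) codes for a mitochondrial enzyme that prefers propionate. WT libraries stood at 313, 364, 363 and 369.8 CPM, TA libraries at 411.5, 430.5, 330.3 and 355 CPM, and TD libraries at 288, 279, 269.8 and 265 CPM. All 4 TD libraries lay below all WT and all TA libraries, and WT and TA overlapped. TD fell by 0.36 against WT (SE 0.0878, adjusted p = 0.00652) and by 0.47 against TA (SE 0.0879, adjusted p = 0.00198). In TA against WT the difference was 0.11 (-0.07 to 0.30). Its exons overlap Ppfia2 on the opposite strand by 2436 bases, and Ppfia2 had 0 to 9 counts per library.

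Among the medium-chain members, Acsf2 (ENSMUSG00000076435, chr11:94557102-94601871, minus strand), a mitochondrial enzyme, was higher in TA than in both other genotypes. It stood at 152, 132, 144 and 134 CPM in WT, 174, 200.4, 153 and 219 CPM in TA, and 137, 143, 148 and 122 CPM in TD. The lowest TA library, replicate 3, was just above the highest WT library. Acsf2 rose by 0.41 in TA against WT (SE 0.0997, adjusted p = 0.0134), and TD was lower than TA (log2 fold change -0.44, SE 0.0999, adjusted p = 0.00730). TD and WT differed by -0.03 (-0.24 to 0.18). Acsf2 shares 33.3% of its 50-base sequences with Gm5540, which had 20 to 41 counts per library. Acsm5 (ENSMUSG00000030972, chr7:119519463-119545551, plus strand), a medium-chain enzyme best known from liver, had 19 to 43 counts per library. Its level was 1.75 to 1.98 CPM in WT, 1.06 to 2.58 in TA and 1.30 to 1.99 in TD, and no comparison passed, with an interval of -0.69 to 0.46 for TD against WT and of -0.39 to 0.74 for TA against WT.

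**Figure D2:**
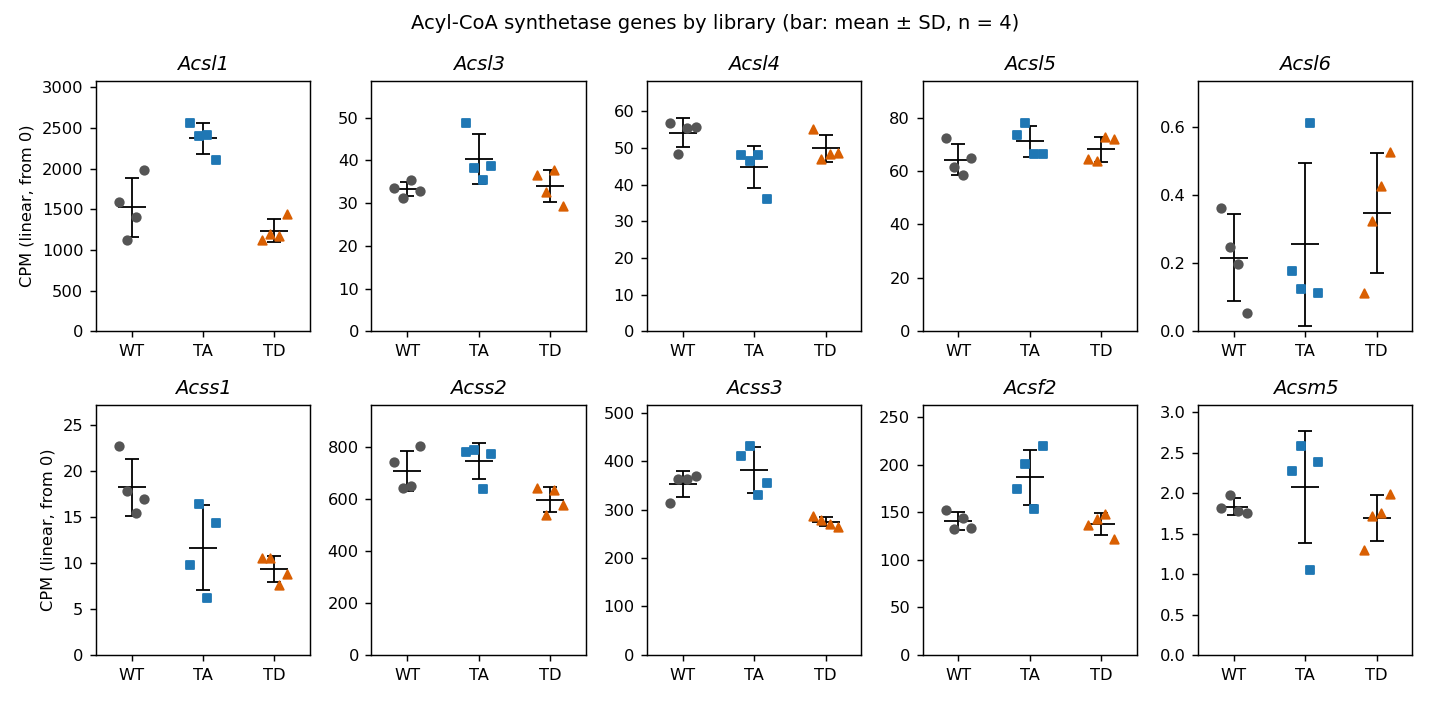
CPM of each member in each library by genotype on linear axes from 0, with the mean and SD (n = 4). The 4 TA libraries of Acsl1 lie at 2110.0 to 2564 CPM, above all WT and TD libraries, and the 4 TD libraries of Acss3 lie at 265 to 288 CPM, below all others.

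Levels of different genes were compared per length, as RPKM, here CPM divided by the exon length in kilobases. In WT the order of mean RPKM was Acsl1 (145), Acss2 (69.9), Acss3 (49.0), Acsf2 (41.0), Acsl5 (13.2), Acsl4 (10.0), Acsl3 (7.64), Acss1 (4.41), Acsm5 (0.482) and Acsl6 (0.0218). In WT only Acss3 and Acsf2, neighbours in this order, had overlapping libraries. In TA, Acsf2 (54.4) stood above Acss3 (53.0), with overlap, and Acsl3 (9.25) above Acsl4 (8.27), also with overlap. Acss2 (73.6), in place 2 in TA, overlapped Acsf2 as well. In TD, Acsf2 (40.1) stood above Acss3 (38.3), and these overlapped too. On the length of the principal transcript, Acss3 was above Acsf2 in both mutants. The exon length used includes retained introns, 10483 bases for Acsl1 against 3897 in its principal transcript.

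**Figure D3:**
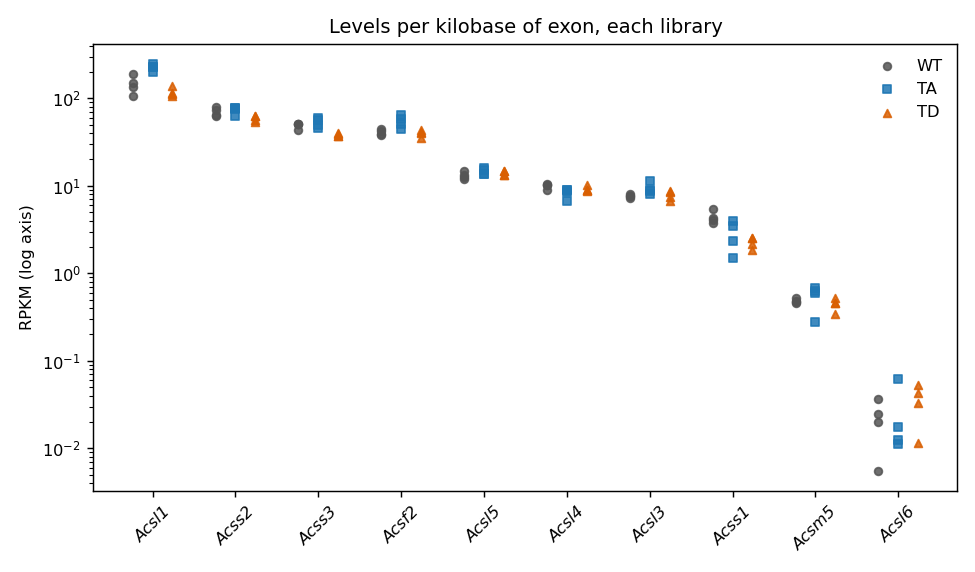
RPKM of the 10 members in each library, by genotype, on a log axis, in the order of the WT means. Acsl1 is the highest member in every genotype, with means of 145 in WT, 226 in TA and 118 in TD.

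Acsl1 made up most of the long-chain class. Of the summed RPKM of the ACSL genes, it took 78.8% to 85.9% in WT, 87.2% to 88.2% in TA and 77.1% to 81.8% in TD. The share in each TA library was above that in each WT and TD library. These shares rest on the exon length. On the length of the principal transcript the WT mean of Acsl1 was 391 in place of 145, and its share is larger. The ratio of Acsl1 to Acsl4 counts within a library, which no scaling between libraries affects, was 23.1 to 35.6 in WT, 50.3 to 58.3 in TA and 20.3 to 29.6 in TD. WT and TD overlapped in this ratio, and TA did not overlap either. Acsl4 was itself lower in every TA library than in every WT library, which widens this ratio. The ratio of Acsl1 to Acsf2 overlapped between WT and TA, at 8.49 to 14.8 and 9.63 to 15.7. The ratios of Acsl1 to Acss2 (1.74 to 2.47 and 2.72 to 3.76) and to Acss3 (3.08 to 5.37 and 5.57 to 7.31) did not overlap between WT and TA. Acss2 counts were 32.8 to 47.4 times the Acss1 counts in WT, 48.4 to 104 times in TA and 51.2 to 83.4 times in TD. Every mutant library exceeded every WT library in this ratio. In TA against WT, Acss2 differed by 0.07 on the log2 scale and Acss1 by -0.64. The share of all gene pairs whose ratios separate in this way was not counted, and neither was that of class shares.

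Scaled to the summed adipocyte markers, some gaps between TD and WT closed and others turned. Acsl1 per 1000 CPM of these markers was 95.7 to 146 CPM in WT, 143 to 199 CPM in TA and 119 to 186 CPM in TD. On this scale TD overlapped both, and WT and TA also overlapped, where unscaled they did not. Acss3 was 22.4 to 31.1 CPM in WT and 29.6 to 34.1 CPM in TD on this scale, where the unscaled TD libraries were all lower. Acss2, also lower in every unscaled TD library than in WT, was 53.1 to 59.3 CPM in WT, 49.95 to 59.0 CPM in TA and 57.1 to 77.1 CPM in TD. Each TD library was above each WT library for Acsl3, at 3.45 to 4.58 CPM against 2.40 to 2.92 CPM, for Acsl4, at 4.98 to 6.27 CPM against 4.07 to 4.58 CPM, and for Acsl5, at 6.76 to 9.24 CPM against 4.78 to 5.26 CPM. On this scale Acss1 was lower in every mutant library than in every WT library, at 1.25 to 1.62 CPM in WT, 0.508 to 1.03 CPM in TA and 0.924 to 1.138 CPM in TD. Unscaled, its TA libraries overlapped those of WT. For Acsf2, TA and TD were both above WT, at 12.6 to 14.9 CPM and 14.5 to 18.1 CPM against 9.87 to 11.9 CPM. These are levels relative to a marker sum that was itself lower in TD, so a gene with unchanged CPM is higher in TD on this scale. Unscaled, Acsl3, Acsl4 and Acsl5 differed between TD and WT by 0.03, -0.12 and 0.09 on the log2 scale. No test was made on the scaled levels, and the share of all genes that separate on them was not counted.

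**Figure D4:**
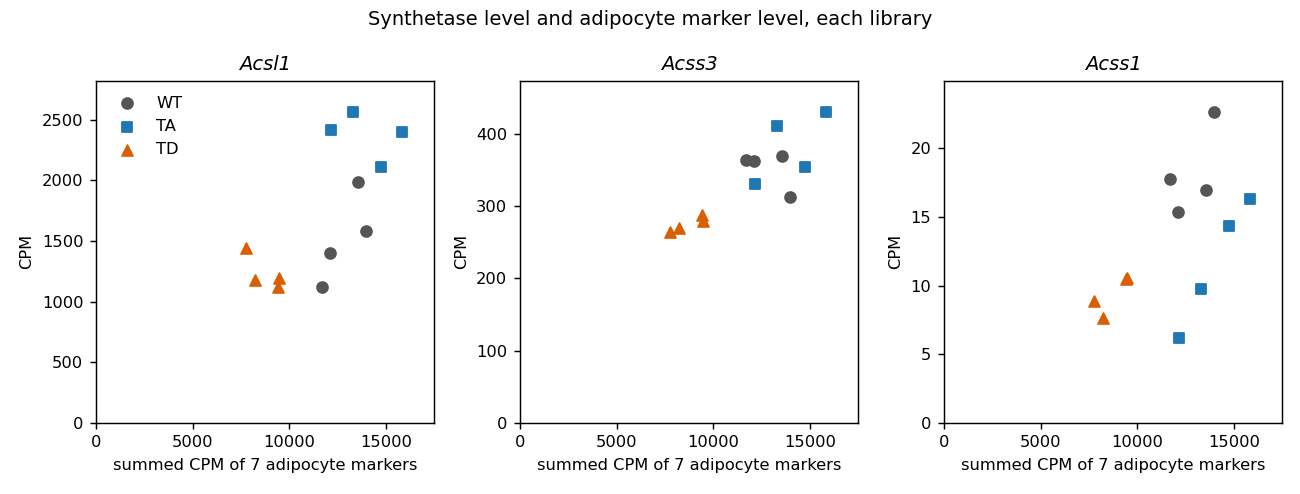
CPM of Acsl1, Acss3 and Acss1 (vertical axes, from 0) against the summed CPM of the 7 adipocyte markers (horizontal axes, from 0), 1 point per library. The 4 TD libraries lie at marker sums of 7771 to 9452 CPM, below all WT and TA libraries. The Acsl1 points of TA are above all those of WT at any marker sum. Per 1000 CPM of the markers, the WT and TA ranges of Acsl1 overlap, at 95.7 to 146 and 143 to 199 CPM.

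The genes most like Acsl1 in pattern were chosen by the root mean square difference of log2 CPM, each centred on its mean over the 12 libraries, among 9029 genes of at least 10 CPM. The nearest 4 were Fasn (0.115), Gpat3 (0.134), Adipor2 (0.158) and Ermp1 (0.167). The median gene differed by 0.468. Fasn, fatty acid synthase, ranged from 8289 to 12191 CPM in WT, 13489 to 17036 CPM in TA and 7289 to 8726 CPM in TD. Gpat3, which esterifies glycerol-3-phosphate with acyl-CoA, was at 36.6 to 65.4, 72.1 to 94.9 and 42.2 to 49.2 CPM. The other members stood farther off, with Acss3 nearest at 0.336 in place 312 and Acss1 farthest at 0.707. All genes were measured in the same 12 libraries and share their depth, so the likeness describes these libraries only.

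**Figure D5:**
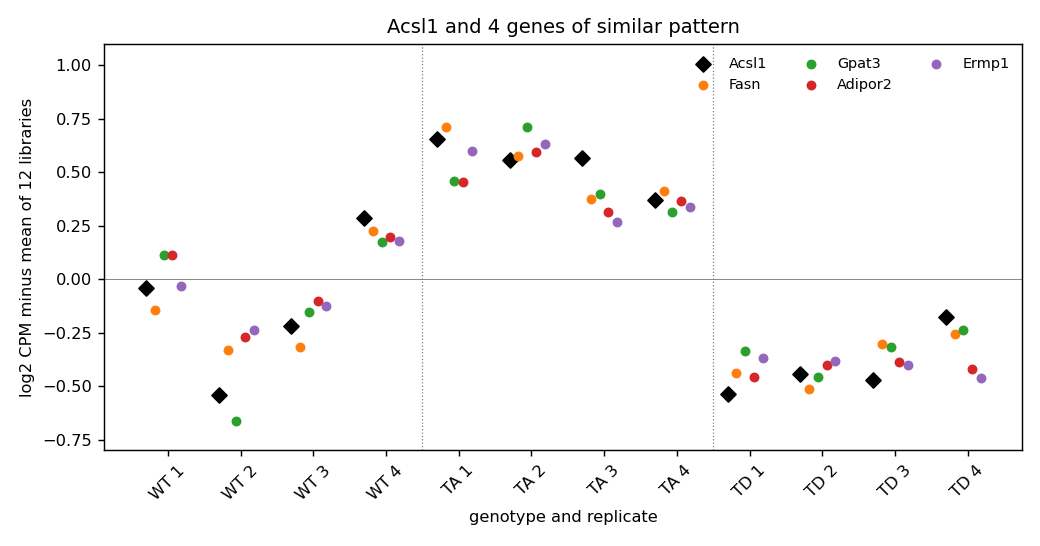
Log2 CPM minus the mean of the 12 libraries, for Acsl1 (black diamonds) and the 4 genes with the smallest root mean square difference, by library. All 5 genes are above 0 in the 4 TA libraries and below 0 in the 4 TD libraries.

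Other genes that make, move or use acyl-CoA were counted over lists. Beside these counts, 6.72% of all tested genes rose and 4.41% fell in TA against WT. In TD against WT 15.1% rose and 14.2% fell, and in TD against TA 7.33% were higher and 9.37% lower. Of 14 other synthetases, 7 were tested, and in TA against WT 3 rose and 2 fell. Slc27a1, a fatty acid transport protein with synthetase activity, rose most, by 1.48 (SE 0.0797, adjusted p = 1.585e-08), from 274 to 309 CPM in WT to 794 to 918 CPM in TA, with TD at 313 to 363 CPM. Acsm3, a medium-chain synthetase, fell most, with a log2 fold change of -2.97, from 13.6 to 33.4 CPM in WT to 1.52 to 5.34 CPM in TA. Against WT, TD had 1 higher, Slc27a3 by 0.97, and 3 lower, Acsm3 most at -2.14. Between the mutants 3 were lower in TD, Slc27a1 most at -1.29. Members of this list thus moved in both directions.

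The carnitine shuttle, which carries acyl groups into mitochondria, had 7 tested genes. Of these 2 rose and 4 fell in TD against WT, where 15.1% of all tested genes rose and 14.2% fell. Cpt1c, a brain-type isoform, was up by 0.79 and Cpt1b, the muscle-type isoform, was at -0.91. Against TA, 4 were lower in TD, Cpt1b most at -1.60, where 9.37% of all tested genes were lower. In TA against WT edgeR called 0 of the 7, beside 11.1% of all tested genes, and DESeq2 also called 0. Of the 7, 2 had an unadjusted edgeR p under 0.05, both higher. Of 7 coenzyme A synthesis genes, 3 fell in TD against WT, beside 14.2% of all tested genes. Against TA, 3 were lower in TD, beside 9.37%. Pank1, a kinase that starts the pathway, was at -0.60 and -0.91. In TA against WT 0 of these 7 were called by edgeR or DESeq2, and 1 was at an unadjusted p under 0.05. Of 5 tested acyl-CoA binding genes, Dbi fell in TD, by 0.62 against WT and 0.56 against TA, and in TA against WT 0 were called by either tool, with 0 at an unadjusted p under 0.05.

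The ATP-citrate lyase gene Acly, whose product makes cytosolic acetyl-CoA from citrate, rose by 1.63 in TA (adjusted p = 3.412e-07) and by 0.72 in TD against WT. In its list of 4 genes, which also holds the citrate carrier Slc25a1 and the deacetylases Sirt1 and Sirt3, 2 rose in TA against WT. In TD against WT 1 rose and 2 fell, with Sirt3 at -0.45 the largest fall, and in TD against TA 2 were lower, Slc25a1 most at -1.10. Of 6 transcription factor genes of fatty acid metabolism, 1 rose in TA against WT, Srebf1 by 0.32. In TD against WT 2 fell, Ppara at -0.71 and Pparg at -0.58, and Pparg, the mutated gene, stood at 330.25 to 373 CPM in WT, 322 to 428 CPM in TA and 209.9 to 258 CPM in TD. Between the mutants 4 of the 6 were lower in TD, Ppara most at -0.75. Beside both lists, 6.72% of all tested genes rose in TA against WT. In TD against WT 15.1% rose and 14.2% fell, and 9.37% were lower in TD than in TA.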

How the data were processed

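Bulk RNA of 12 adipocyte libraries was analysed, 4 per genotype as the labels give it. The authors aligned reads to GRCm38 with HISAT2 and deposited raw counts per gene, without normalization. The submitters' processing notes also name HTSeq 0.6.1 and cutadapt 1.9.1; the strand setting is not given in the sources used here. Genes were kept by filterByExpr (minimum count 10, minimum total 15) and scaled by TMM in edgeR 4.0.16 with R 4.3.3. The 12 libraries shared 1 quasi-likelihood fit, tested two-sided, with Benjamini-Hochberg adjustment over 15117 genes and a threshold of 0.05. The common biological coefficient of variation was 12.9%, and counting error matters most for Acsl6 and Acsm5. On simulated counts for TD against WT, 75% of 200 genes changed by 1 up or down on the log2 scale were recovered among 14932 genes, with 8.54% of calls false. In the real data 29.2% of tested genes were called in that comparison, and no tested member changed by as much as 1. The simulated recovery therefore does not carry over to the members. DESeq2 1.42.0, library totals, no filter, only the libraries compared, a fold threshold, a replicate block and leaving out each library were tried as alternatives. Positions and exon lengths come from GENCODE M21, where 99.8% of identifiers were found, and promoter windows from RefSeq. All 10 members are named, as are, in each list, the called genes with the largest rise and fall and the genes most like Acsl1, of which the rule takes 5. The nearest 4 are given, and the last is not reported here. The members, lists and motifs were chosen with earlier results of these data known.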

Additional observations from a re-analysis of the deposited data

Results flagged for a closer look

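Of 30 groups of 4 libraries (10 genes in 3 genotypes), 5 held a library far from the other 3 by Dixon's criterion, which marks about 1 in 20 groups by chance. Acsl4 was lowest in WT replicate 2, at 48.4 CPM, and in TA replicate 4, at 36.2 CPM. Acss3 was lowest in WT replicate 1, at 313 CPM, and Acss2 in TA replicate 3, at 642 CPM. Acsl6 was highest in TA replicate 3, at 0.612 CPM, which rests on 11 counts.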

How the results depend on the processing

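The Acsl1 and Acsf2 rises in TA against WT, the Acss1 and Acss3 falls in TD against WT, and the Acsl1, Acss3 and Acsf2 differences between TD and TA kept their direction and an adjusted p under 0.05 in all 18 alternative fits. With library totals in place of TMM, the Acss2 difference between TD and TA lost its call (adjusted p = 0.0621). Asking for an absolute log2 fold change above 1 left 0, 0 and 0 members called in TD against WT, TA against WT and TD against TA. DESeq2 and no filter on low counts each called 4 in TA against WT. Leaving out 1 library gave 2 to 4 called in TD against WT, 2 to 3 in TA against WT and 3 to 6 in TD against TA. Uncalled differences near 0 changed sign: Acsf2 in TD against WT to 0.038 with library totals, 0.015 without WT replicate 1 and 0.023 without TD replicate 4, Acsl3 in TD against WT to -0.0049 and -0.0215 without TD replicates 1 and 3, and Acsl5 in TD against TA to 0.019 with library totals. Over single libraries left out, these ran from -0.0215 to 0.0969 for Acsl3 and from -0.0689 to 0.0228 for Acsf2 in TD against WT. The cause was not tested.

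The replicate numbers did not pair the samples: 2 of 12 same-numbered pairs correlated above 0.1, and 2 of 12 libraries were closest to their own number. With the replicate block, 2, 3 and 4 members were called in TD against WT, TA against WT and TD against TA, the added one being Acss1 in TA against WT (-0.69, adjusted p = 0.0298).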
